A study of Mus musculus with 6 samples.

Results

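The genes described are 8 markers of dendritic cells measured in sorted regulatory T cells (Treg), the CD4 T cells that depend on the transcription factor Foxp3 and restrain other immune responses. They were given as a list by name (Siglech, Ly6d, Cd209a, Clec9a, Itgax, Flt3, Irf8 and Cd80) and found by symbol, with 1 row each, among the 38854 genes of the array. Liver Treg (3 arrays, numbered 2, 3 and 7 in the labels) were set against spleen Treg (3 arrays, numbered 4, 5 and 6). All came from Foxp3-GFP mice, whose Treg carry a green fluorescent reporter, and all mice had been given IL-2 bound to an anti-IL-2 antibody, which expands Treg, for 3 days, followed by 3 days without it. No untreated Treg were measured, the age and sex of the mice and the number of mice per array are not given in the labels, and the labels name both a fluorescence cell sorter and magnetic isolation.

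Dendritic cells take up antigen and present it to T cells. Plasmacytoid dendritic cells make type I interferon on contact with viral nucleic acid and depend on the E-box-binding factor Tcf4. Conventional dendritic cells prime T cells and come in a first type, which presents antigen of dead cells to CD8 T cells and depends on Irf8 and Batf3, and a second type, which presents mainly to CD4 T cells. Both kinds grow in response to the ligand of the receptor tyrosine kinase Flt3. In the list, Siglech, a sialic acid-binding lectin, and Ly6d, a small surface protein that B cells also carry, mark plasmacytoid cells. Cd209a, the mouse DC-SIGN lectin found on conventional cells of the second type and on monocyte-derived cells, and Clec9a, the lectin by which cells of the first type sense dead cells, mark conventional cells. Itgax (CD11c), Flt3 and Irf8 are used by both kinds, and Cd80 is the ligand of CD28 and CTLA-4 that rises on activated antigen-presenting cells.

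The stretches upstream of Siglech, Cd209a and Clec9a are shown because these 3 genes had the widest spans over the 6 arrays. They are the 250 bases before the gene start in RefSeq (GRCm38.p6), which held such a stretch for 7 of the 8 genes. Capitals mark E-boxes (CANNTG, the motif bound by Tcf4 and many other factors, the same on both strands) and, in Cd209a at positions -152 to -144 from the start, the ETS-IRF composite GGAANNGAA (searched on both strands), at which Irf8 can pair with an ETS factor. The sequences lie at chr7:55767934-55768183 (plus strand) for Siglech, chr8:3748985-3749234 (minus strand) for Cd209a and chr6:129408612-129408861 (plus strand) for Clec9a.
Siglech: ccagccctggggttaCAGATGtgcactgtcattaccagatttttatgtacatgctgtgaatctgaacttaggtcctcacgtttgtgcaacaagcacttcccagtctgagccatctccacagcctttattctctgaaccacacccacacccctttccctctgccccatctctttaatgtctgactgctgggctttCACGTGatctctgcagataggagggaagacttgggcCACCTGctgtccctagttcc
Cd209a: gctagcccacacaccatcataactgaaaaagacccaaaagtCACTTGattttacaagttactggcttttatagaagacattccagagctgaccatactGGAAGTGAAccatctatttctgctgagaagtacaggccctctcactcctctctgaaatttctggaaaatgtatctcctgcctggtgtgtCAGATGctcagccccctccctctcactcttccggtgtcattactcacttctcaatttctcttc
Clec9a: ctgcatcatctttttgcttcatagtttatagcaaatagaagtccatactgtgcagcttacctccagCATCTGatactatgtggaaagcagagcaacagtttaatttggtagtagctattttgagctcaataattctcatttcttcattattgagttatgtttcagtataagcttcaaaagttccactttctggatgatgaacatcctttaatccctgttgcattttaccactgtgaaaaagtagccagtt

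The Siglech stretch held 3 E-boxes, that of Cd209a 2 and that of Clec9a 1. At least 1 E-box was present in 66.2% of the 32851 upstream stretches of the same length in the table, 2 or more in 31.8% and the ETS-IRF composite in 6.99%. A match describes the letters only, and no binding was measured here.

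Values are log2 signals after RMA, which compresses differences of dim genes, and with 3 arrays a tissue their precision is low. Foxp3, the defining gene of Treg, measured 9.52, 9.57 and 9.31 on liver arrays 2, 3 and 7, against 9.50, 9.57 and 9.40 on spleen arrays 4, 5 and 6. The rows that measure background averaged 4.15 to 4.34 on the liver arrays and 4.09 to 4.55 on the spleen arrays, highest on spleen array 5. Single background rows spread widely: the lowest measured 1.66 to 2.12 and the highest 7.31 to 8.45, depending on the array. All values of Siglech, Cd209a, Clec9a, Itgax, Flt3 and Ly6d lay within that range. So did those of Irf8 on every array but liver array 7 (7.61, with the highest background row at 7.31). The value of Cd80 on spleen array 5 (8.27, against 8.45) also lay within it. A distance from the background mean therefore does not settle whether these genes were detected on those arrays. Liver arrays 2 and 3 were the closest pair of all arrays (median absolute log2 difference over genes 0.083). The arrays were also divided into 2 sets across the tissues by the hyaluronan-binding protease gene Habp2. It measured 8.37 and 8.44 on liver arrays 2 and 3 and 8.19 on spleen array 6, against 5.73 on liver array 7 and 5.51 and 5.66 on spleen arrays 4 and 5. Over all genes the arrays did not group this way. Liver array 7 was closest to spleen array 6 of the other set (0.0887), and spleen arrays 4 and 5 of the same set were the farthest pair (0.2269). Ctse, an aspartic protease gene, was split the opposite way (8.67 to 8.76 against 11.1 to 11.3). The labels name no batch or mouse that goes with these sets, so values within each set are given beside the pooled ones.

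In liver Treg samples, 6 of the 8 genes were higher on every array than on any spleen array: Siglech, Cd209a and Clec9a by about 2-fold and Irf8, Itgax and Flt3 by 1.42-fold or less. Over all genes tested, 3.11% had all liver arrays above all spleen arrays. Ly6d and Cd80 overlapped between the tissues. None of the 8 passed limma at an adjusted p of 0.05 over all genes, a threshold that 0.0206% of all genes (8 of 38854) passed. At an unadjusted p under 0.05 the same 6 genes were higher in liver, against 2.09% of all genes. The median difference of the 8 genes was 0.49 on the log2 scale, with all 8 positive, beside a median of -0.02 over all genes, of which 42.3% were positive. The 8 genes were chosen with earlier results of these data known, so these contrasts with all genes are a description and no independent support. The labels do not say that each array was a separate mouse, so the p-values reflect array-to-array scatter alone, part or all of which could be technical.

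**Figure D1:**
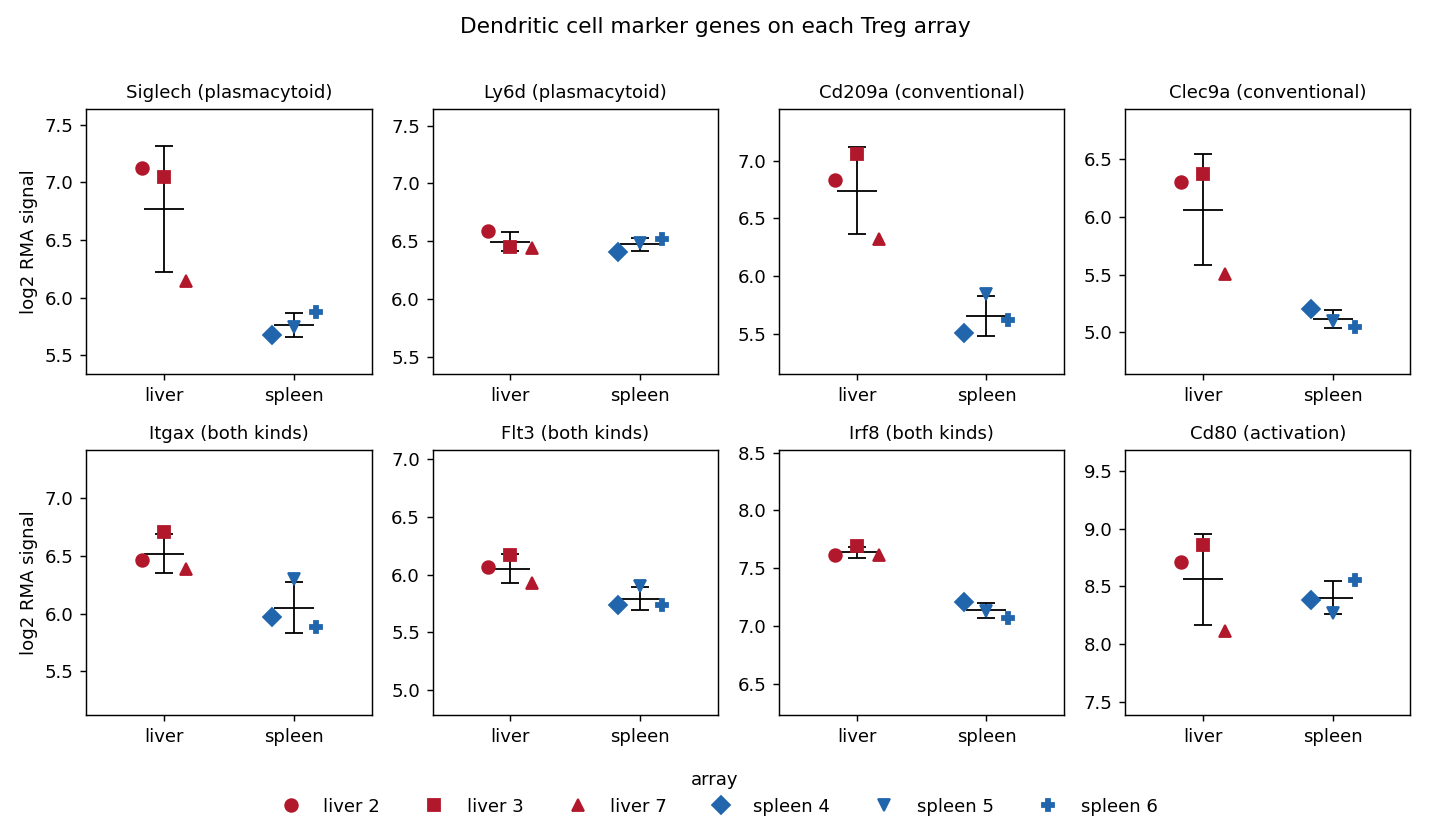
Log2 RMA signal (vertical axes, all spanning the same range) of each gene on the liver and spleen arrays; symbols are single arrays and black bars the mean and SD of 3 arrays. Siglech, Cd209a and Clec9a are high on liver arrays 2 and 3 and lower on liver array 7, Irf8 lies between 7.61 and 7.69 on the 3 liver arrays, and Ly6d is flat across both tissues.

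Among the plasmacytoid markers, Siglech (transcript cluster TC0700000931.mm.1) measured 7.12, 7.04 and 6.14 on liver arrays 2, 3 and 7, against 5.68, 5.74 and 5.88 on spleen arrays 4, 5 and 6. Liver arrays 2 and 3 stood well above the rest, and liver array 7 lay only 0.26 above the highest spleen array. The means were 6.77 ± 0.54 in liver and 5.77 ± 0.10 in spleen (SD, n = 3 each), a 2.01-fold difference (on the log2 scale SE 0.21 and 95% confidence interval 0.55 to 1.46, limma adjusted p = 0.282). Without liver array 7 the difference was 1.32 and passed (limma adjusted p = 0.0041). It also passed, at 0.82, with the array set as a covariate (adjusted p = 0.0465), and over all alternatives the adjusted p was 0.0041 to 0.862.

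Ly6d (TC1500001718.mm.1) measured 6.59, 6.45 and 6.44 on liver arrays 2, 3 and 7, against 6.41, 6.48 and 6.52 on spleen arrays 4, 5 and 6. The tissues overlapped, with the highest value in liver and the lowest in spleen, and the whole span was 0.18. Its difference of 0.02 (95% confidence interval -0.21 to 0.26, limma adjusted p = 1) changed sign when liver array 2 or spleen array 4 was left out, and with the array set as a covariate. The interval leaves room for a change of up to 1.20-fold in liver, and its upper bound lies below the lower bound for Siglech. On liver arrays 2 and 3 Siglech lay 1.36 and 1.28 above its own spleen mean, and Ly6d stood at 0.12 and -0.02 from its own. The difference between the 2 genes was not tested, and all Ly6d values lay within the range of single background rows.

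Among the conventional markers, Cd209a (TC0800001619.mm.1) measured 6.84, 7.06 and 6.32 on liver arrays 2, 3 and 7, against 5.50, 5.84 and 5.62 on spleen arrays 4, 5 and 6. All liver arrays were clear of the spleen arrays, by a gap of 0.48. The means were 6.74 ± 0.38 in liver and 5.66 ± 0.17 in spleen (SD, n = 3 each), a 2.12-fold difference (log2 difference 1.08, SE 0.17, 95% confidence interval 0.71 to 1.46, limma adjusted p = 0.0746). This was the smallest p of the 8 genes, and rank 18 among all genes. Cd209a passed under 6 of 17 alternatives, with adjusted p-values of 0.0107 to 0.522 over all 17 and differences of 0.92 to 1.29.

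Clec9a (TC0600003537.mm.1) measured 6.30, 6.37 and 5.51 on liver arrays 2, 3 and 7, against 5.20, 5.10 and 5.04 on spleen arrays 4, 5 and 6. As for Siglech, liver array 7 lay between the other liver arrays and the spleen arrays, nearer to the spleen. The means were 6.06 ± 0.48 in liver and 5.12 ± 0.08 in spleen (SD, n = 3 each), a 1.92-fold difference (log2 difference 0.94, SE 0.19, 95% confidence interval 0.53 to 1.36, limma adjusted p = 0.251). The liver values lay 1.35 to 2.05 above the mean of the background rows, and the spleen values 0.55 to 1.02 above it. Without liver array 7 the difference was 1.22 and passed (limma adjusted p = 0.00491), while over its 16 alternatives the adjusted p was 0.00491 to 0.85.

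Irf8 (TC0800001451.mm.1), the interferon regulatory factor that plasmacytoid cells, first-type conventional cells and B cells express, was the steadiest of the higher genes. It measured 7.61, 7.69 and 7.61 on liver arrays 2, 3 and 7, against 7.20, 7.13 and 7.07 on spleen arrays 4, 5 and 6. Liver array 7 was here as high as liver array 2, and the tissues were 0.41 apart at their nearest arrays. The means were 7.64 ± 0.05 in liver and 7.13 ± 0.07 in spleen (SD, n = 3 each), a 1.42-fold difference (log2 difference 0.50, SE 0.11, 95% confidence interval 0.27 to 0.73, limma adjusted p = 0.283). Its difference stayed at 0.47 to 0.54 over 17 alternatives, none of which brought it past the threshold (adjusted p 0.121 to 0.737).

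Itgax (TC0700001876.mm.1), the integrin chain CD11c that NK cells and macrophages can also carry, measured 6.46, 6.71 and 6.39 on liver arrays 2, 3 and 7, against 5.97, 6.30 and 5.89 on spleen arrays 4, 5 and 6. Spleen array 5, with the highest background, came within 0.09 of the lowest liver array. The log2 difference was 0.47 (SE 0.14, 95% confidence interval 0.17 to 0.77, limma adjusted p = 0.591). Flt3 (TC0500003626.mm.1) measured 6.06, 6.17 and 5.93 on the liver arrays, against 5.73, 5.90 and 5.73 on the spleen arrays. Here the nearest arrays were 0.02 apart, again liver array 7 and spleen array 5, and the difference was 0.26 (95% confidence interval 0.01 to 0.51, limma adjusted p = 1).

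Cd80 (TC1600000553.mm.1), which T cells can express as well, measured 8.71, 8.86 and 8.11 on liver arrays 2, 3 and 7, against 8.38, 8.27 and 8.56 on spleen arrays 4, 5 and 6. The lowest and the highest values of all were both liver values. The log2 difference was 0.16 (95% confidence interval -0.22 to 0.53, limma adjusted p = 1), 0.38 without liver array 7 and 0.01 without liver array 3. In both tissues the arrays with high Habp2 (liver 2 and 3, spleen 6) had more Cd80 than the others. Within that set the liver and spleen difference was 0.23, and within the other set it was -0.21.

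**Figure D2:**
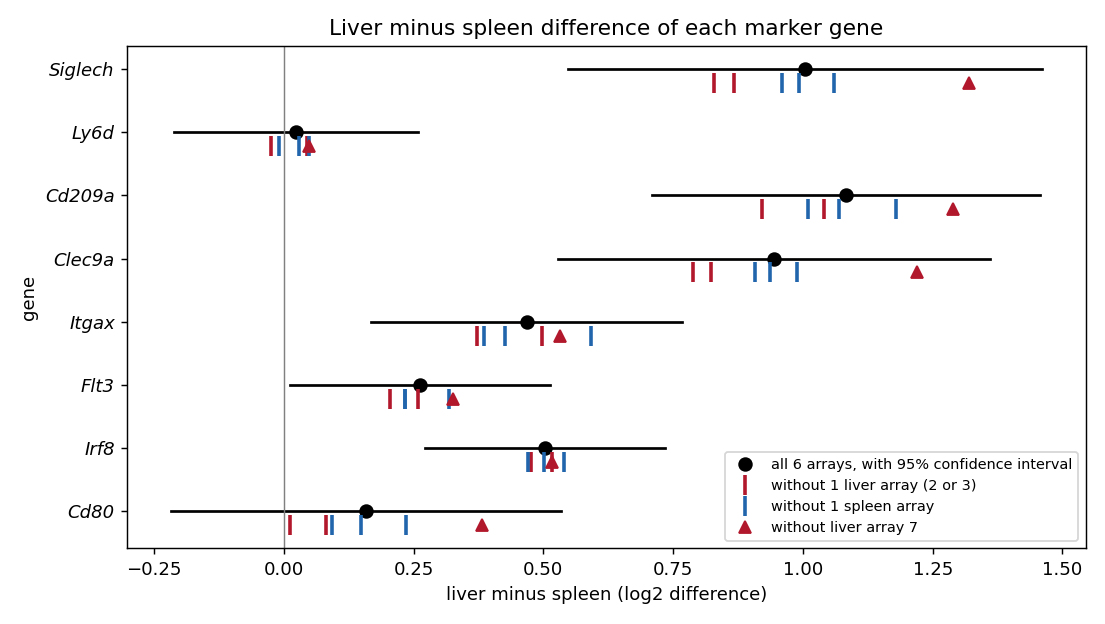
Liver minus spleen difference on the log2 scale (horizontal axis) of each gene: dots are all 6 arrays with the 95% confidence interval of limma, ticks the values with 1 array left out, triangles those without liver array 7. Leaving out liver array 7 moves Siglech to 1.32, Cd209a to 1.29 and Clec9a to 1.22, whereas the values of Irf8 lie close together.

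The plasmacytoid and conventional markers were then compared array by array, as the distance of each array from the spleen mean of the same gene, since signals of different probe sets are not comparable in level. On liver array 2 Siglech lay 1.36 above its spleen mean, beside 1.18 for Cd209a and 1.19 for Clec9a. On liver array 3 the distances were 1.28 for Siglech, 1.41 for Cd209a and 1.26 for Clec9a. On both arrays the plasmacytoid marker Siglech and the 2 conventional markers thus lay above the spleen by similar amounts, while Ly6d stood at 0.12 and -0.02. On liver array 7 the distances were 0.38 for Siglech, 0.67 for Cd209a and 0.39 for Clec9a, and -0.03 for Ly6d. On the linear scale liver array 7 held 0.20 of the Siglech excess that liver arrays 2 and 3 had over the spleen mean, 0.23 of that of Clec9a and 0.40 of that of Cd209a. The corresponding share was 0.38 for Flt3, 0.58 for Itgax and 0.91 for Irf8. These shares were not tested, since they compare single arrays.

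**Figure D3:**
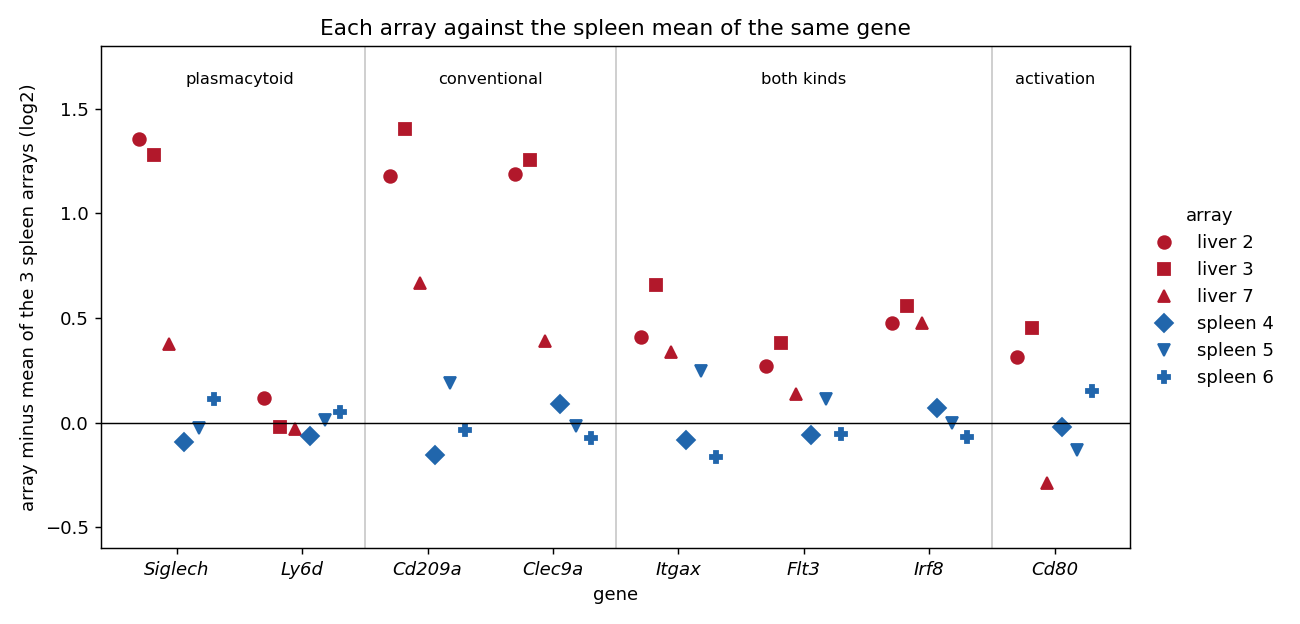
Each array's log2 signal minus the mean of the 3 spleen arrays for the same gene (vertical axis), with genes grouped as markers of plasmacytoid cells, conventional cells, both kinds and activation. Siglech, Cd209a and Clec9a share a pattern of 2 high liver arrays and 1 intermediate one, while Irf8 lies at 0.48, 0.56 and 0.48 on liver arrays 2, 3 and 7 and Ly6d near 0.

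Within each array set the 6 higher genes were also higher in liver, which follows from every liver array lying above every spleen array. Only the sizes of these differences add to that. Siglech was 1.20 higher on liver arrays 2 and 3 than on spleen array 6, and 0.43 higher on liver array 7 than on spleen arrays 4 and 5. The same pair of differences was 1.33 and 0.65 for Cd209a, 1.29 and 0.35 for Clec9a, 0.58 and 0.44 for Irf8, 0.70 and 0.26 for Itgax and 0.38 and 0.11 for Flt3. All 6 were thus larger in the set with liver arrays 2 and 3, and each set had a single array in one tissue, so the difference between the sets was not tested. The fit over all 6 arrays with the array set as a covariate gave Cd209a a tissue difference of 0.99 (limma adjusted p = 0.0226). In bulk samples such as these, fewer cells of a type and less RNA per cell cannot be told apart.

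Genes with the profile most like each of the 3 wide-spanning markers were found as those with the smallest mean absolute difference over the 6 arrays, after each gene was centred on its own mean, among 20494 other genes. Nearest to Siglech were Klra17 (0.094), which encodes Ly49Q, an inhibitory receptor known from mouse plasmacytoid cells, then Clec9a (0.099) and Kmo (0.123), a kynurenine pathway enzyme. Nearest to Clec9a were the NK receptor gene Klrb1b (0.095), Siglech (0.099) and the Ly49 gene Klra9 (0.117). Nearest to Cd209a were the MHC class II gene H2-Ab1 (0.103), the activating receptor gene Klrk1 (0.111) and Klra9 (0.130). Genes of the Klra and Klrb1 families have close copies, so their own levels are uncertain. The spleen signals of Klra17 (4.27 to 4.33) and Klra9 (3.34 to 3.63) also lay near or below the mean of the background rows, which limits what their likeness shows. Cd209a itself ranked 8 by likeness to Siglech and 6 to Clec9a, Irf8 ranked 209 and 241, and Ly6d ranked 7888 and 7267.

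Other genes of the dendritic cell programs were read from lists chosen by cell type, and none of their members was called by limma over all genes. Of 13 plasmacytoid genes, 4, Siglech among them, had all liver arrays above all spleen arrays and none below, with a median difference of 0.22. Over all genes tested, 3.11% lay above and 3.09% below, and the same shares apply to the lists that follow. Klk1, a kallikrein protease gene found in mouse plasmacytoid cells, measured 7.12, 6.87 and 6.22 on liver arrays 2, 3 and 7, against 5.71, 6.00 and 5.43 on spleen arrays 4, 5 and 6, a difference of 1.03 (SE 0.21, limma adjusted p = 0.249). Bst2, the antiviral membrane protein tetherin, differed by 0.60, and it is induced by interferon in many cells. The groups overlapped in Tcf4 (0.25) and Spib (0.16), which encode transcription factors of these cells. They also overlapped in Irf7 (0.04), Pacsin1 (-0.13) and Tlr7 (-0.13). The last 2 were the only negative differences, and 11 of the 13 genes were positive. Bst2, Tcf4, Spib, Irf7, Pacsin1 and Tlr7, like the other list genes named for their role or direction, were chosen after their values were seen.

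Of 10 first-type conventional genes 2 lay above in liver, Clec9a and the chemokine receptor gene Xcr1 (0.35, SE 0.12, limma adjusted p = 0.814), and the list median was 0.07. Xcr1 was dim, at 4.78, 4.92 and 4.74 in liver and 4.40, 4.65 and 4.35 in spleen. Batf3, needed for the development of these cells and also expressed by T cells, differed by -0.01. Of 10 second-type genes only Cd209a lay above, with a list median of 0.08. Its paralog Cd209d differed by 0.51 with overlapping groups, and the lectin gene Clec10a by 0.07. The higher values of Clec9a and Cd209a were thus not shared by most genes of their lists.

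Of 8 genes that dendritic cells of both kinds use, 5 lay above in liver (Itgax, Flt3, Irf8, Kmo and Cd74), with a median of 0.37. Itgax, Flt3 and Irf8 are among the described genes, so only Kmo and Cd74 add to them. The groups overlapped in Cst3 (0.15) and Ciita (0.11). Kmo measured 6.35, 6.32 and 5.47 on liver arrays 2, 3 and 7, against 5.13, 5.43 and 5.21 on spleen arrays 4, 5 and 6. Cd74, the invariant chain of MHC class II, differed by 0.57 (limma adjusted p = 0.507). Zbtb46, a transcription factor of conventional cells, differed by -0.06. Of 14 activation and migration genes none lay above and 2 lay below in liver, beside 3.09% of all genes that lay below. One was Cd83, a surface marker of mature dendritic cells that activated T and B cells also express, at -0.50 (SE 0.13, limma adjusted p = 0.435), and the other was the NF-kB subunit Relb at -0.14. Of 21 genes of dendritic cell development 2 lay above, Irf8 and the plasmacytoid factor Bcl11a (0.34), and 2 lay below, Nfil3 (-0.32) and Relb. The ligand Flt3l differed by -0.05 and the list median was -0.01.

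**Figure D4:**
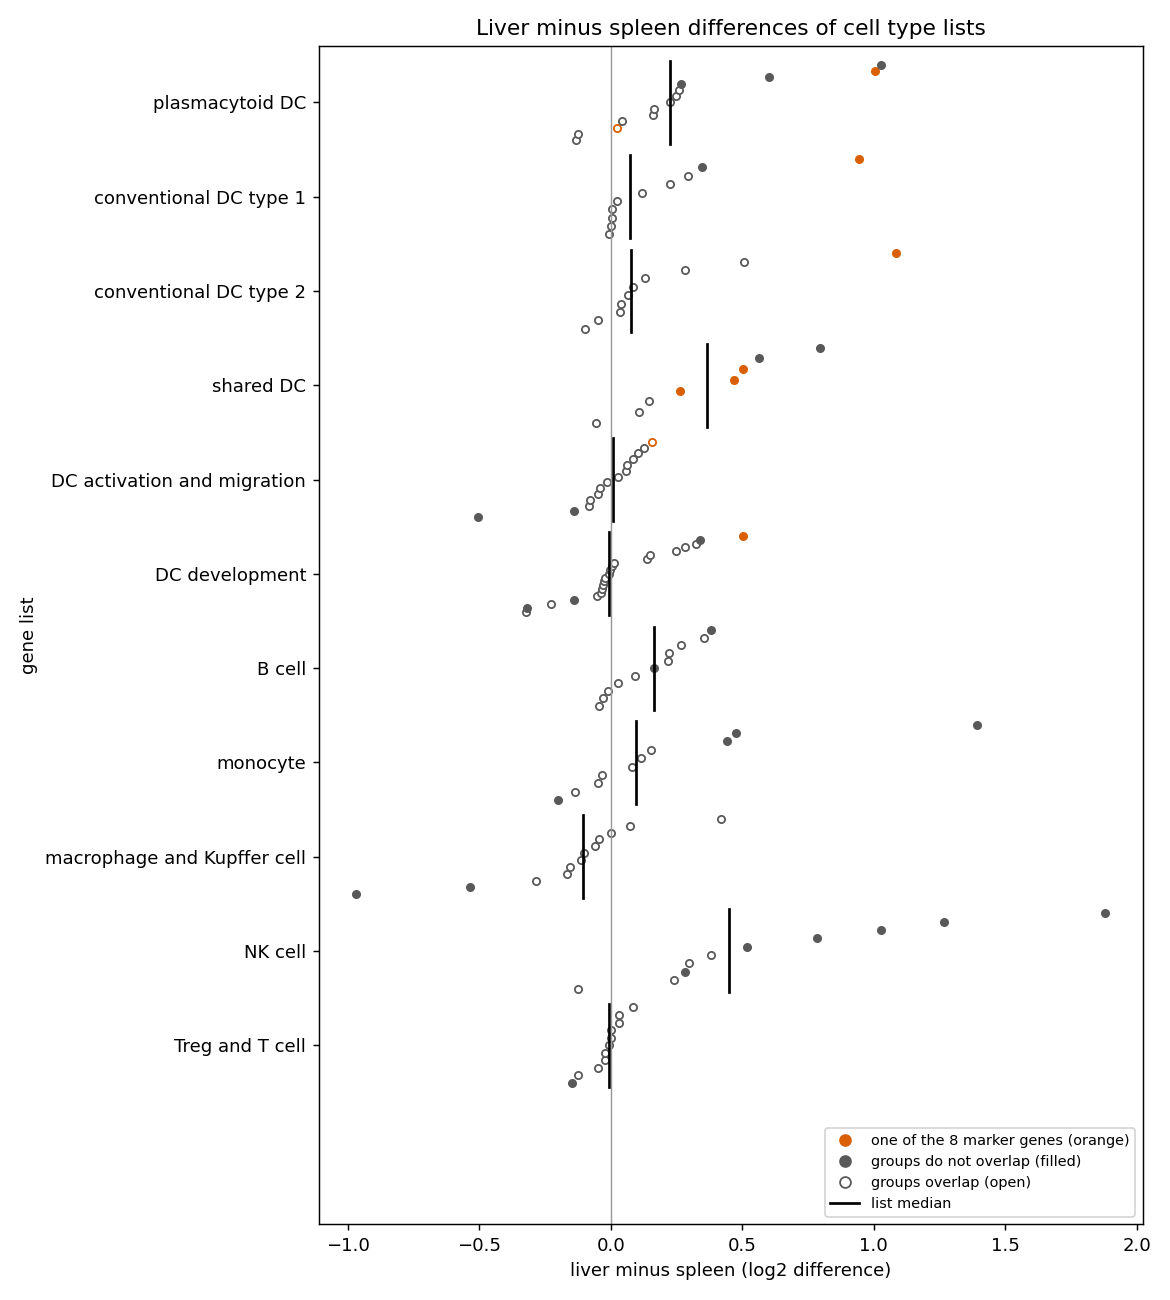
Liver minus spleen log2 difference (horizontal axis) of each gene of the cell type lists; orange marks the 8 described genes, filled dots genes whose groups do not overlap, bars the list medians. The medians, which count the described genes of a list, are 0.22 for plasmacytoid, 0.37 for shared dendritic cell and 0.45 for NK cell genes. That of Treg and T cell genes is -0.01.

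Markers of other cells that the samples could hold were set beside these genes. Over all genes tested, 3.11% lay above in liver and 3.09% below. Of 10 NK cell genes, 6 lay above in liver with a median of 0.45, and their summed linear signal was 925.1 to 1593.3 on the liver arrays, lowest on array 7, against 588.2 to 734.6 on the spleen arrays. The NK receptor chain gene Klrd1 had the largest difference of the list, 1.88 (limma adjusted p = 0.0695). In 4 of the NK genes the groups overlapped, among them Ncr1 (0.38) and Eomes (-0.12). Tyrobp, the brightest gene of the list on every array, weighed most in the sum and differed by 1.27 (limma adjusted p = 0.283). Which cells gave the signals of Tyrobp and the other genes of this list was not tested, so the sum is no measure of NK cells alone. Of 10 monocyte genes, 3 lay above and 1 below, with a summed signal of 2537.8 to 3219.1 in liver and 2217.5 to 2428.6 in spleen. Lyz2, the lysozyme gene of myeloid cells, measured 8.16, 8.10 and 7.31 on liver arrays 2, 3 and 7, against 6.27, 6.74 and 6.37 on spleen arrays 4, 5 and 6, a difference of 1.39 (limma adjusted p = 0.0659). Of 11 B cell genes, which matter for Ly6d, Irf8 and Cd80, 2 lay above in liver with a median of 0.16, and the summed signal of 1002.5 to 1168.4 in liver overlapped that of 899.5 to 1084.0 in spleen. Of 12 macrophage and Kupffer cell genes none lay above and 2 lay below, among them Spic, a transcription factor gene of red pulp macrophages, which was called lower in liver (limma adjusted p = 0.0425). Its liver signals of 4.48, 4.23 and 4.26 lay near the mean of the background rows, so the size of its difference is not given. The part of these other cells in the values of the 8 genes was not tested.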

How the data were processed

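Total RNA of the 6 samples was measured on Affymetrix arrays, which the protocol and the column headers name differently. The deposited values are log2 signals that the authors made with RMA; the submitters' processing notes name Affymetrix Expression Console as the software. Its version, the genome build and the annotation release were not given in the sources used here. The 2 deposited tables held the same values (largest difference 0). Of 72688 rows, 39514 carried 1 symbol, and per symbol the row with the highest mean was kept, giving 38854 genes. Symbols are the file's; Jchain stands as Igj and Adgre1 as Emr1, and 2 list genes were not found.

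Liver was compared with spleen by the moderated test of limma 3.58.1 (R 4.3.3; functions lmFit then eBayes; two-sided, no covariate, Benjamini-Hochberg over all genes, threshold 0.05). The fit was tested on simulated data. An exact permutation test of 3 against 3 cannot go below 0.1. The genes and lists were chosen with earlier results of these data known. Genes named beyond the 8 were the 3 with the most similar profile to each gene spanning at least 1 log2 unit (no predicted, small RNA or receptor segment genes), and per list the called genes or else the 2 with the largest absolute difference. Further list genes were named after their values were seen. Alternatives were other scalings, filters on dim genes, row averaging, another variance model and leaving out arrays; the array set covariate and averaging liver arrays 2 and 3 were added after seeing the data.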

Additional observations from a re-analysis of the deposited data

How the results depend on the processing

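The differences of Siglech, Cd209a, Clec9a, Irf8, Itgax, Flt3 and Cd80 were positive under each alternative run. For all of them but Cd80, whose groups overlap, this was fixed in advance with arrays left out or averaged and with the covariate. The number of called genes was unstable: 8 with all arrays, 0 after array medians were subtracted, quantile normalization or cyclic loess (1448, 2391 and 2429 genes at an unadjusted limma p under 0.05), 22 after the background rows were subtracted, 18 without the lower 50% of genes, 21 without genes of a mean under 5, 27 with a trended robust variance, 78 with the array set as a covariate, and 0 to 33 with 1 array left out (0, with 2017 at an unadjusted p under 0.05, without spleen array 5, and 33 without liver array 7). Cd209a passed after background rows were subtracted (1.11, adjusted p = 0.0179), with either filter or the other variance model (1.08 each), and with the covariate (0.988). With 1 array left out its difference was 0.922 to 1.29, that of Siglech 0.828 to 1.32 and that of Clec9a 0.788 to 1.22; each passed without liver array 7 only. Siglech also passed with the covariate (0.819). Ly6d lay between -0.0241 and 0.0494 with 1 array left out (-0.00902 without spleen array 4) and at -0.00242 with the covariate. Clec9a and Flt3 have no value without the lower 50% of genes. Of 48 distances of single liver arrays from the spleen mean under the 2 scalings, 7 moved by more than the spleen SD. The causes of these changes were not tested. No paired analysis was possible because the liver and spleen arrays share no number. Signals near or below the mean of the background rows limit, among others, Clec9a, Xcr1, Klra9, Klra17 and Spic. Those of Siglech, Cd209a, Itgax, Flt3 and Ly6d lay higher but still within the range of single background rows. The same held for Irf8 except on liver array 7, and for Cd80 on spleen array 5.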

Other observations

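Lists for other cells of the liver and blood were read in the same way, beside 3.11% of all genes above in liver and 3.09% below. Of 8 hepatocyte genes, Alb, the albumin gene, was the only one with all liver arrays above all spleen arrays, at 5.44, 5.55 and 5.22 on liver arrays 2, 3 and 7 and 4.83, 5.11 and 4.86 on spleen arrays 4, 5 and 6 (log2 difference 0.47, limma adjusted p = 0.475), and Apoc3 differed by -0.13. Of 8 liver endothelial genes none was above or below, with Fcgr2b at 0.20 and Pecam1 at -0.19. Of 10 neutrophil genes none was above and 1 was below, with Ly6g at 0.21 and Elane at -0.16. Of 5 red blood cell genes none was above and 1 was below, Hbb-bs at -0.22. Of the CD8 T cell genes, Cd8a differed by 0.97 (limma adjusted p = 0.141) and Cd8b1 by 0.29.

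Jchain, the joining chain of polymeric immunoglobulin, which plasma cells and plasmacytoid dendritic cells are known to express, measured 6.92, 6.95 and 5.52 on liver arrays 2, 3 and 7, against 5.73, 5.76 and 5.67 on spleen arrays 4, 5 and 6. It was high on the same 2 liver arrays as Siglech, but on liver array 7 it lay below all spleen arrays. Of the 7 plasma cell genes 1 lay above in liver, Prdm1 at 0.28, and the list median was 0.00.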
